A study of Homo sapiens with 4 samples.

Results

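A set of 7 genes of RAS and MAP kinase signaling downstream of the T cell receptor was examined among the RNA regions recovered with PRMT5: GRB2, SOS1, RASGRP1, NRAS, HRAS, MAP2K1 and MAPK14. A peak, that is a region listed as bound, was taken as theirs where its gene identifier carried the symbol of the gene. They held 9 of the 18993 peaks in the list, in 4 of the 7 genes: GRB2 had 2, HRAS 3, MAP2K1 3 and MAPK14 1, while SOS1, RASGRP1 and NRAS had 0. Every region in the list had already been called as a peak, so that a higher level in PRMT5 RIP than in input may be partly what put a region there. The rule of the calling is not given, and 729 of the 18993 peaks were lower in RIP than in input.

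The cells were Jurkat, a human line grown from a T cell leukemia, treated for 48 hours with PHA, a plant lectin that activates T cells, and crosslinked with UV light at 400 mJ. RNA bound to FLAG-tagged PRMT5 was recovered by immunoprecipitation (RIP) and sequenced in 2 libraries, beside 2 libraries of input RNA from cells of the same line and treatment. All 4 libraries came from PHA-stimulated cells, so no comparison with resting cells is possible, and a single transformed line stands for T cells here. For each peak the list holds 1 value for PRMT5 RIP and 1 for input, in RPM (reads scaled to the size of the library), so the spread between replicates and the depth of each library are unknown and no difference was tested.

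PRMT5 is an arginine methyltransferase that works together with WDR77. After the T cell receptor is engaged, the adaptor GRB2 brings the exchange factor SOS1 to the membrane scaffold LAT, and RASGRP1, a second exchange factor, is recruited by diacylglycerol. Both load the small GTPases NRAS and HRAS with GTP. Active RAS starts the RAF kinases, which phosphorylate MEK1, the product of MAP2K1, and MEK1 activates the ERK kinases. MAPK14 encodes p38α, a MAP kinase of the parallel stress-activated branch.

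In each of the 4 genes with a peak, the first peak began within 51 nt of the annotated transcript start, counted from 1 at the first base. The starts of HRAS and MAPK14 are shown as positions 21 to 50 of the transcript, 5′ to 3′, to place the edge of the peak in the RNA. Capitals mark the bases inside the peak, written as DNA from the RefSeq sequences of GRCh38.p14.
HRAS, chr11:535527-535556, minus strand: CGCCCGTGCCCTGCGCCCGCAACCCGAGCC
MAPK14, chr6:36027828-36027857, plus strand: agcaGCTGGAACGGGAGTACTGCGACGCAG
The HRAS peak opened at position 1 and holds all 30 bases, and the MAPK14 peak opened at position 25 and holds 26 of them. The GRB2 peak opened at position 44 and the MAP2K1 peak at position 51. G and C made up 25 of the 30 bases in HRAS and 19 in MAPK14. Over the 300 bases from 250 before to 50 after the start, the GC content was 72.3% in GRB2, 78% in HRAS, 72% in MAP2K1 and 60.3% in MAPK14, against a median of 58.7% over 35116 annotated starts. Among the genes with no peak, the GC content was 71.3% in RASGRP1, 57.3% in NRAS and 51% in SOS1. Whether GC content bears on having a peak was not tested.

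All 9 peaks had at least 2 times more RPM in PRMT5 RIP than in input, beside 56.6% of all peaks in the list. The RIP over input ratio ran from 2.57 to 14.4, and its median on the log2 scale was 1.75, against 1.10 for the whole list. The 4 peaks at a gene start held the 4 highest ratios, 5.13 to 14.4, and the other 5 peaks lay between 2.57 and 3.62.

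**Figure D1:**
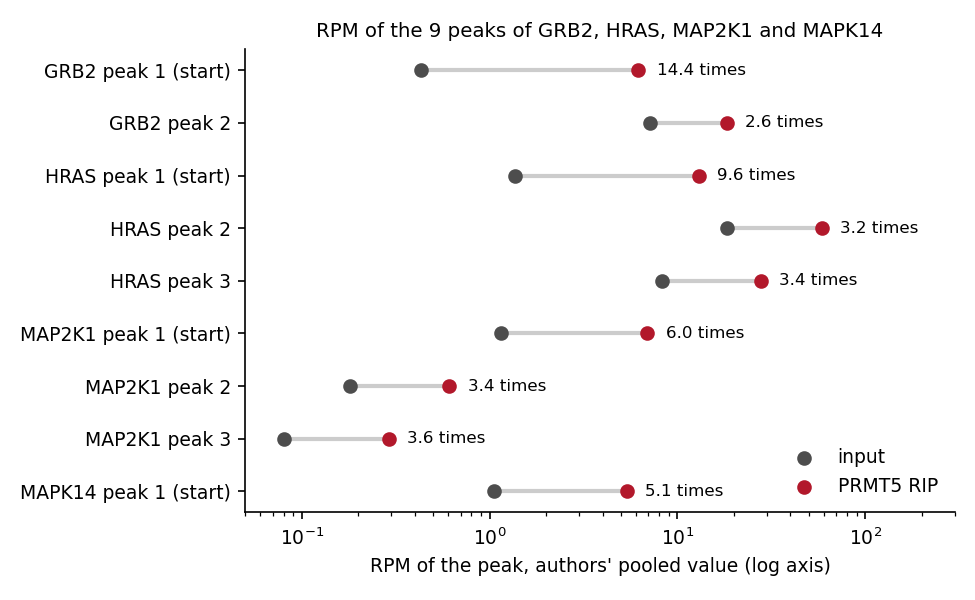
RPM of each of the 9 peaks in PRMT5 RIP (red) and input (grey) on a log axis, with the ratio of RIP to input written beside each pair; points are single pooled values without an error. RIP lay above input at every peak, and the 4 start peaks had the widest gaps, from 5.1 to 14.4 times.

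GRB2, the adaptor that links phosphorylated LAT to SOS1, had the highest ratio of the 9 peaks. Its first peak (gene identifier ENSG00000177885.15, chr17:75405484-75405635, minus strand, 152 nt, GRCh38) stood at 6.20 RPM in RIP against 0.43 RPM in input, a ratio of 14.4. The deposited values are rounded to 0.01 RPM, which leaves the ratio between 14.2 and 14.6. Of all peaks in the list, 99.6% had a lower ratio, and among the peaks at an annotated start the share was 99.1%. The input level was low rather than absent, as 36.7% of all peaks had less input RPM. The second GRB2 peak (chr17:75325951-75393782) was given as 1 uninterrupted block of 67832 nt that spans most of the gene, introns included, and had 18.43 RPM in RIP and 7.16 in input. Its ratio of 2.57 was the lowest of the 9 peaks, and 63.1% of all peaks lay below it. This block lists 2 gene identifiers and also covers the ribosomal protein pseudogene RPL36AP7, so its RPM cannot be assigned to GRB2 alone. The ratio at the start was 5.60 times that of the wide block. The start peak held 25.2% of the RIP RPM of the 2 peaks together but 5.67% of their input RPM.

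The exchange factors that act next had no peak. SOS1, which GRB2 recruits, spans chr2:38981549-39124868, and RASGRP1, the diacylglycerol-dependent factor, chr15:38488103-38564814, both on the minus strand, and no peak on either strand touched them. The peak nearest to SOS1 lay 230194 nt away in SRSF7, a splicing factor gene, with 21.06 RPM in RIP and 17.57 in input. Near RASGRP1 the closest peak belonged to FAM98B on the opposite strand, 22812 nt away, with 3.02 RPM in RIP and 1.36 in input. A gene outside the list has no RPM value here, and whether its RNA was too low to be called or was not recovered with PRMT5 cannot be told apart.

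Of the 2 RAS GTPases in the set, NRAS and HRAS, only HRAS had peaks. NRAS (chr1:114704469-114716771, minus strand) had no peak on either strand. HRAS, in contrast, was covered by peaks over 95.5% of its 3335 nt on chromosome 11. Its first peak (ENSG00000174775.18, chr11:535333-535576, minus strand, 244 nt) had 13.03 RPM in RIP and 1.36 in input, a ratio of 9.58 that 98.5% of all peaks did not reach. After a gap of 75 nt came the second peak (chr11:533338-535257, 1920 nt), with 59.06 RPM in RIP and 18.36 in input. It carried the most RPM of the 9 peaks in both measurements, at a ratio of 3.22. The third peak, 50 nt further on (chr11:532267-533287, 1021 nt), had 27.76 RPM in RIP and 8.25 in input, a ratio of 3.36. The body of the gene thus stood at nearly the same ratio on both sides of that gap, and the start stood 2.98 and 2.85 times above the body peaks. Per kilobase, the input level of the start peak, 5.57 RPM, was below those of the body peaks, 9.56 and 8.08 RPM, whereas its RIP level, 53.4 RPM, was above theirs, 30.8 and 27.2 RPM. The peak holding the start took 13.0% of the HRAS RPM in RIP and 4.86% in input. LRRC56 overlaps HRAS in the annotation, and since the use of strand in counting is not stated, reads of the 2 genes on the shared stretch cannot be told apart.

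MAP2K1 encodes MEK1, the kinase directly above ERK. Its first peak (ENSG00000169032.11, chr15:66386962-66401749, plus strand, 14788 nt) ran from position 51 to position 14838 of the gene. It stood at 6.92 RPM in RIP against 1.15 in input, a ratio of 6.02. In the list, 94.8% of all peaks had a lower ratio. The 2 other peaks were short and low in RPM. Per kilobase they stood above the first peak, with 8.13 and 5.8 RPM in RIP against 0.468. Per kilobase of input they had 2.4 and 1.6 RPM against 0.0778. The second (chr15:66435029-66435103, 75 nt) had 0.61 RPM in RIP and 0.18 in input, and the third (chr15:66436762-66436811, 50 nt) had 0.29 and 0.08 RPM. They lay 33279 nt and a further 1658 nt downstream of the preceding peak, and 20.7% and 8.92% of all peaks had less input RPM than they did. Rounding alone leaves the ratio of the third peak anywhere from 3.35 to 3.93, so the order of the pair, 3.39 and 3.62, is not defined by these values. The start peak was 1.78 and 1.66 times above them, the smallest such gaps in the 3 genes with several peaks. Over its 14788 nt, most of them far from the start, it held 88.5% of the MAP2K1 RPM in RIP and 81.6% in input.

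MAPK14, the gene of the stress-activated kinase p38α, had a single peak (ENSG00000112062.12, chr6:36027832-36028181, plus strand, 350 nt). It had 5.39 RPM in RIP and 1.05 in input, a ratio of 5.13 that was above 92.1% of all peaks and above 86.8% of the start peaks. This peak covered 0.363% of the 96407 nt of the gene, and nothing downstream of it was listed.

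**Figure D2:**
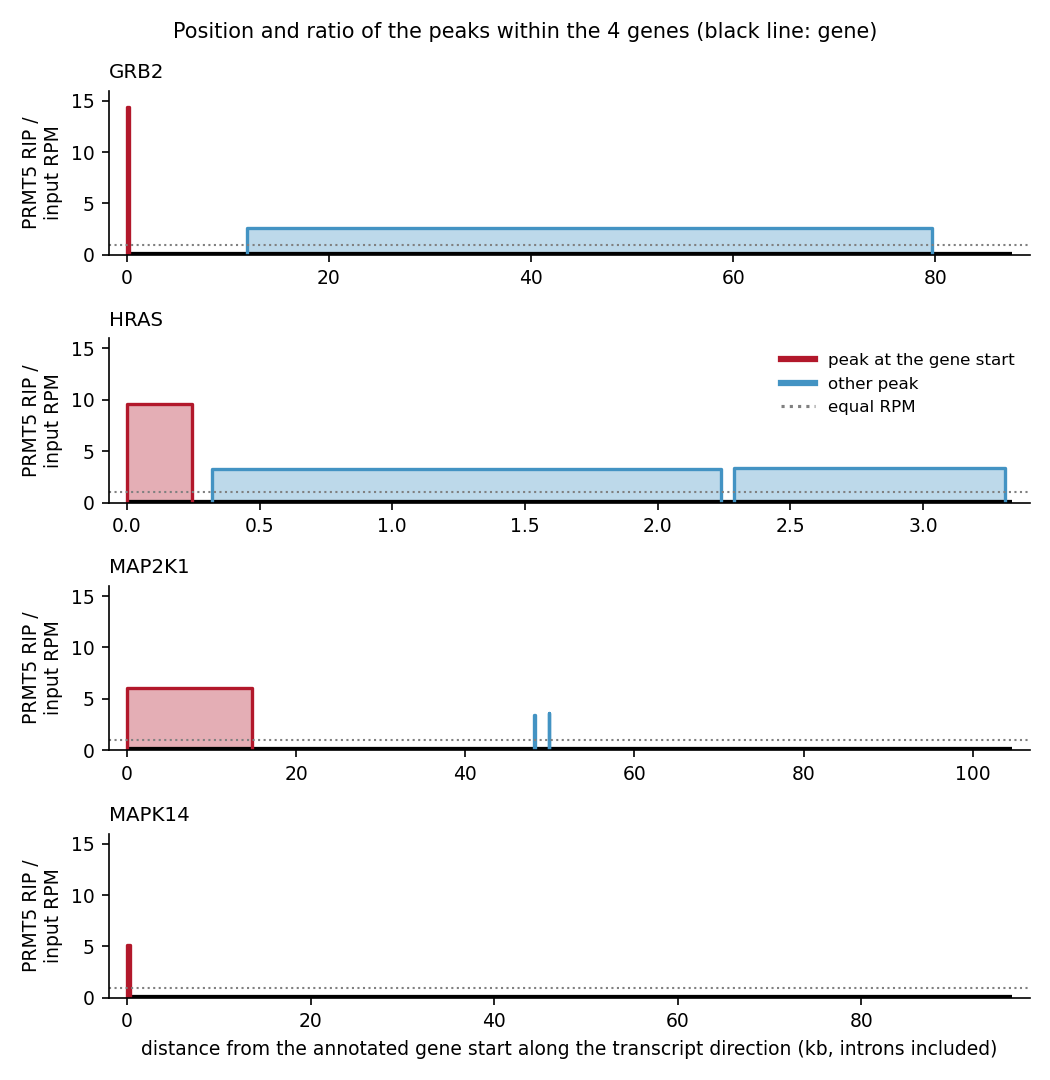
Ratio of PRMT5 RIP RPM to input RPM (height) for every peak of GRB2, HRAS, MAP2K1 and MAPK14 against the distance in kb from the annotated gene start along the transcript, introns included, with the gene as a black line and equal RPM as a dotted line. In GRB2, HRAS and MAP2K1 the peak at the start (red) stood above every later peak (blue), and in MAPK14 it was the only peak.

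Summed over peaks, the 4 genes lay closer together than their start peaks did. HRAS had 99.85 RPM in RIP and 27.97 in input (3.57 times), GRB2 24.63 and 7.59 (3.25 times), MAP2K1 7.82 and 1.41 (5.55 times) and MAPK14 5.39 and 1.05 (5.13 times). The input sums differed far more than these ratios, and the 2 genes with the highest input sums, HRAS and GRB2, had the lower ratios. These sums are not scaled to width. The peaks covered 67984 nt in GRB2, 14913 nt in MAP2K1, 3185 nt in HRAS and 350 nt in MAPK14, so the order of the sums is not one of RNA level per base. The GRB2 sums and its place in this order rest on its wide block, with 7.16 RPM in input, which cannot be assigned to GRB2 alone. At the 4 start peaks alone, RIP ranged from 5.39 to 13.03 RPM and input from 0.43 to 1.36 RPM.

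A higher ratio at the gene start was not peculiar to these genes. In the whole list 3419 peaks, or 18.0%, had their 5′ edge within 100 nt downstream of an annotated start on the same strand, a distance chosen after the values were seen. Those peaks had a median log2 ratio of 1.42, against 1.03 for the remaining ones, and 73.4% of them reached 2 times input, against 52.9%. Outside the set, 6201 named genes had a peak, and 51.7% of them had one at a start, compared with all 4 of the genes here. Where such a gene had at least 2 peaks with 1 of them at a start, the start peak had the highest ratio in 1319 of 1964 genes, or 67.2%. The share was 77.9% in genes with 2 peaks and 67.8% in genes with 3, the numbers of peaks found in GRB2, HRAS and MAP2K1, in all of which the start peak came first. Even among start peaks the 4 lay high, since 86.8% to 99.1% of start peaks had lower ratios. Their median log2 ratio was 2.91. The 5 peaks away from a start had a median of 1.71, and between 66.8% and 80.4% of such peaks in the list lay below each of them.

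**Figure D3:**
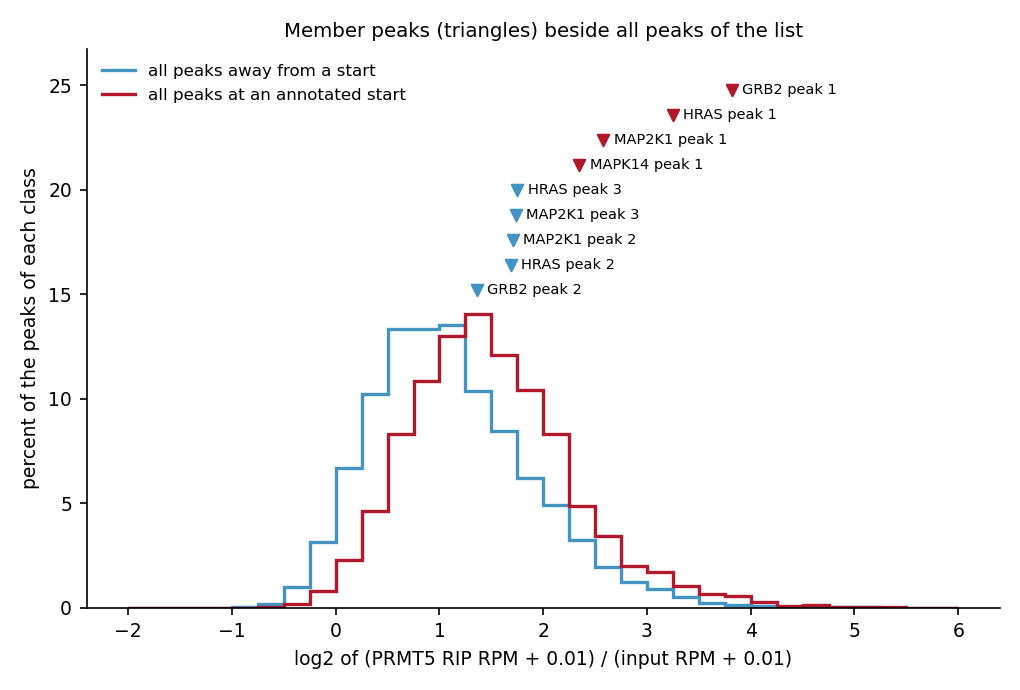
Distribution of the log2 ratio of PRMT5 RIP to input over all peaks at an annotated start (red line) and away from one (blue line), as percent of each class per bin, with the 9 peaks of the set as labelled triangles; 5 peaks fall outside the plotted range, and the height of a triangle has no meaning. The red triangles of the 4 start peaks lie in the right-hand tail of both curves, and the blue ones, between 1.36 and 1.75, lie within the main body of the blue curve.

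The same measurement was made for other genes of RAS and MAP kinase signaling, from a list of 74 genes written from general knowledge, of which 64 could be matched to a gene and 10 were not analysed here. A peak was listed for 35 of the 64, and 29 had none. These 35 genes carried 96 peaks, of which 66 (68.8%) had at least 2 times the input RPM, again beside 56.6% of all peaks, and 2 were lower in RIP than in input. Their median log2 ratio was 1.27, below the 1.75 of the 9 peaks and above the 1.10 of the whole list. Of 21 start peaks, found in 20 genes, 18 reached 2 times input, with ratios from 1.76 to 28.0 and a median log2 ratio of 1.59. The 75 other peaks had a median of 1.17, and 48 of them reached 2 times input.

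Genes were ranked by the ratio of summed RPM among the 28 genes with at least 0.5 RPM of summed input, and the counts by role below stand beside the 56.6% of all peaks that reached 2 times input. By role, the adaptors around GRB2 had the lowest share of peaks past 2 times input, 2 of 11. LAT, the membrane scaffold that binds GRB2, had 128.04 RPM in RIP and 101.87 in input over 4 peaks (1.26 times), each of which lists 2 identifiers. GRAP2, known as GADS, which joins LAT to SLP-76, had 30.97 and 22.53 RPM (1.37 times). GRAP, the close relative of GRB2, had 23.4 and 10.87 RPM (2.15 times), values that may be split with its near-identical copy GRAPL. These adaptors had higher input sums than GRB2, not scaled to the width of the peaks, and lower ratios. Both LAT and GRAP2 were among the 3 lowest ratios of the 28 ranked genes. Among the exchange factors, SOS2, RASGRP3 and RASGRP4 had no peak, like SOS1 and RASGRP1, and only RASGRP2, a calcium-responsive factor, had any. Its 3 peaks all reached 2 times input and summed to 12.1 RPM in RIP and 3.57 in input (3.39 times).

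Of the other RAS-family genes in the list, RRAS2 had 1 peak with 2.63 RPM in RIP and 0.52 in input (5.06 times), among the 3 highest ratios of the 28 ranked genes, and MRAS had none. The GTPase-activating proteins and inhibitors of RAS had peaks in 3 of 8 genes, and 4 of their 7 peaks reached 2 times input, a share close to that of all peaks. RASA3, a GTPase-activating protein, was the third of the lowest ranked genes, with 1.84 and 1.19 RPM (1.55 times), while NF1, RASA1 and the Sprouty-related SPRED1 and SPRED2 had no peak. Among the RAF kinases and their scaffolds, 6 of 7 peaks reached 2 times input, and 3 of these were in ARAF, at 8.03 and 2.73 RPM (2.94 times over 4 peaks), whereas BRAF had no peak.

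The MAP2 kinases other than MAP2K1 had peaks in 5 of 6 genes, and 8 of 13 peaks reached 2 times input, again close to the 56.6% of all peaks. MAP2K2, which encodes the second ERK-activating kinase MEK2, had 1 peak, which opened at position 3 from an annotated start and was 33750 nt wide. Over that whole stretch it had 177.64 RPM in RIP and 94.86 in input (1.87 times). The first peak of MAP2K1, 14788 nt wide, had far less input RNA, 1.15 RPM, and a ratio of 6.02. Neither value describes the start alone. Of the MAP3 kinases and the TAB proteins that activate TAK1, all 4 peaks in 3 genes reached 2 times input. MAP3K7, the gene of TAK1 itself, had a start peak with 2.79 RPM in RIP and only 0.15 in input (18.6 times), below the input limit of the ranking.

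The MAP kinases besides MAPK14 had peaks in 4 of 7 genes, and 9 of 12 peaks reached 2 times input. MAPK3, the gene of ERK1, had 71.96 RPM in RIP and 44.29 in input over 4 peaks (1.62 times). Of the other p38 genes, MAPK11 had 4 peaks with 3.21 and 1.29 RPM (2.49 times) and MAPK12 had 3 with 2.18 and 0.91 RPM (2.40 times), none of them at an annotated start, and MAPK13 had no peak. Both stood below the 5.13 of MAPK14, but that value comes from a single start peak, so unlike kinds of peaks are compared here. The JNK genes MAPK8 and MAPK9 had no peak either.

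Further down the cascade, 18 of the 27 peaks of kinases activated by MAP kinases reached 2 times input, close to the 68.8% of the whole pathway list. RPS6KA4 and RPS6KA5, which encode the nuclear kinases MSK2 and MSK1 downstream of ERK and p38, had 3.82 and 0.79 RPM (4.84 times, among the 3 highest of the 28 ranked genes) and 0.56 and 0.02 RPM (28.0 times, with too little input to be ranked). All 5 peaks of the dual-specificity phosphatases, which switch MAP kinases off, reached 2 times input, with DUSP2 at 96.46 and 40.42 RPM (2.39 times) and DUSP1, also below the input limit of the ranking, at 3.02 and 0.42 RPM (7.19 times). All 6 peaks of the transcription factor genes did so as well. SRF, the serum response factor that acts with ELK1, had the highest ratio of the 28 ranked genes, 7.55 over 0.97 RPM (7.78 times), and ELK1 had 3.98 and 1.22 RPM (3.26 times).

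The cell type was checked through marker genes. All 5 of the T cell markers that could be matched had peaks, with input sums from 3.46 RPM for CD2 to 417.11 RPM for CD3D. Of the 2 B cell markers matched, CD79A had 2 peaks (69.91 RPM in RIP, 37.28 in input) and PAX5 had none. Of the 4 monocyte markers matched, CD14, FCGR3A and ITGAM had none, and CSF1R had 1 peak (33.04 and 29.51 RPM). The part of such transcripts in the values above was not tested.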

How the data were processed

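The authors deposited 1 peak list for the 2 PRMT5 RIP and 2 input libraries of Jurkat cells, with a pooled RPM (reads scaled to library size) of RIP and of input for each peak, rounded to 0.01. The submitters' processing notes name hg38, fastp and HISAT2. The peak caller, the annotation, the counting and the pooling are not given in the sources used here. The library kit marks strand, but the use of strand in counting is not stated. The list also holds the authors' fold change, p-value and FDR columns of RIP against input, which were not used. Values per library were not analysed here, so there was no test, no error and no interval, and the depth is unknown.

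A peak with several identifiers counted for the first of them. Identifiers were named through the symbols of a supplementary table and otherwise through the GRCh38.p14 RefSeq gene on the same strand. Of 686 identifiers named both ways, 685 had the same name, and 6205 were named in all. Positions are given counted from 1, with 1 added to the starts in the list. The log2 ratio used a pseudocount of 0.01, and ratios without log2 used none. A peak was counted as past input at 2 times its input RPM. Of the pathway list every gene was counted, and the 3 highest and 3 lowest genes by log2 ratio of summed RPM with at least 0.5 RPM of summed input were named by rule, while other pathway genes were named for their role after their values were seen. The genes and lists were chosen with earlier results of these data known. Simulated peaks with 1 identifier each were used to test the naming by position, the log2 ratio and the count at 2 times input. The distance to a start, the naming through the supplementary table and the shares of peaks or genes were not tested in this way. Python 3.11.15 was used with pandas 2.3.3, numpy 2.4.6 and matplotlib 3.10.9.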

Additional observations from a re-analysis of the deposited data

How the results depend on the processing

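All 9 peaks stayed past input at 1.5 times (77.6% of all peaks), and 8 did so at 3 times (29.7%). At 2 times, 6 of 6 passed where input was 0.5 RPM or more (44.0%). As all 9 ratios were 2.57 or more, passing at 1.5 times, and at 2 times with the input minimum, was fixed in advance. Only the setting of 3 times could have lowered the count. The median log2 ratio of the 9 peaks was 1.64 with a pseudocount of 1, 2.05 with that input minimum, and 2.05 without the peak that lists several identifiers, an alternative chosen after seeing the data. The log2 ratio of GRB2, a median of 2.59 over its peaks, was 1.70 from summed RPM, 2.46 with a pseudocount of 0.1 and 1.79 with 1. For HRAS, at 1.75, it was 1.64 with a pseudocount of 1. For MAP2K1, at 1.74, it was 2.46 from summed RPM, 1.34 with a pseudocount of 0.1 and 0.45 with 1, and for MAPK14, at 2.35, it was 1.64 with 1. The larger pseudocounts lie above the input RPM of several of these peaks. No value changed sign. Of the pathway peaks, 66 past 2 times input of 96 became 30 of 46 with the input minimum (beside the 44.0% of all peaks), 38 at 3 times and 84 at 1.5 times, chosen after seeing the data. The start peak was highest in 67.9% of genes at a distance of 50 nt, 65.8% at 200 nt and 73.9% with the input minimum. At 50 nt the first MAP2K1 peak, which opens at position 51, no longer counts as a start peak, while those of GRB2, HRAS and MAPK14 still do. No paired analysis was possible because the list holds pooled values with no replicate numbers. The pooled list gives no spread between libraries, and its unknown depth limits what the faintest peaks can show.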
